A study of Mus musculus with 5 samples.

Results

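Clustered H3K27me3 peaks that lay away from promoters were examined in molar mesenchyme of wildtype C57BL/6 mice. A peak was included when it was called in H3K27me3 replicate 1 against input, had at least 3 other peaks of that list with midpoints within 10 kb of its own midpoint, and lay more than 10 kb from the 5′ end of every protein-coding gene. Of 22757 peaks, 1889 (8.30%) met these criteria and are called distal clustered peaks here. Chained together wherever neighbouring midpoints were 10 kb or less apart, they formed 420 runs. The values that chose them are the positions of replicate 1 peaks, so that everything measured in that list is given as a description.

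The molars came from mice at postnatal day 3, and the epithelium had been taken off before chromatin immunoprecipitation and sequencing (ChIP-seq). All libraries shared this genotype, strain, age and tissue, and the study profiled the mark in order to find genes that Ezh2 may regulate. There were 2 H3K27me3 libraries, each with its own input library of chromatin without immunoprecipitation, and 1 library made with a nonspecific IgG antibody. The labels do not say how many animals each library holds or whether the libraries came from separate animals, and the identity of the dissected tissue cannot be checked from chromatin peaks alone. After duplicate removal, 30369351 tags of 49 bp were left for replicate 1 and 49947919 tags of 74 bp for replicate 2, while the 3 control libraries had 23688420 to 51681224. The authors deposited 22757 peaks for replicate 1 against input, 24881 for the same library against IgG and 33379 for replicate 2 against its input. Depth and tag length differed between the replicates, and what either contributes to a difference between the lists cannot be told apart.

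H3K27me3, the trimethylation of lysine 27 on histone H3, is placed by Polycomb repressive complex 2, whose catalytic subunit is Ezh2. The mark is known for covering promoters of silent developmental regulators and for spreading over the surrounding sequence, including gene bodies, intergenic stretches and the genes of non-coding RNAs. In a differentiated tissue such regions typically belong to genes of other lineages. The questions here were which regions away from protein-coding promoters carried several peaks, and whether the second library had peaks in the same places.

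The sequences below are from the 4 runs with most replicate 2 peaks among those in which peaks of both libraries shared bases, and a tie for the last place, between Polg and Six3, went to the run with more distal clustered peaks. They are shown because they are the stretches that the 2 libraries marked in common. Each is read 5′ to 3′ on the plus strand of GRCm38.p6 (RefSeq). Capitals are bases within both a replicate 1 and a replicate 2 peak, and lower case bases are in 1 library only or in neither. The names are those of the nearest protein-coding gene, with the microRNA gene inside the run where there is one.
Hoxc4 run, chr15:103063126-103063425: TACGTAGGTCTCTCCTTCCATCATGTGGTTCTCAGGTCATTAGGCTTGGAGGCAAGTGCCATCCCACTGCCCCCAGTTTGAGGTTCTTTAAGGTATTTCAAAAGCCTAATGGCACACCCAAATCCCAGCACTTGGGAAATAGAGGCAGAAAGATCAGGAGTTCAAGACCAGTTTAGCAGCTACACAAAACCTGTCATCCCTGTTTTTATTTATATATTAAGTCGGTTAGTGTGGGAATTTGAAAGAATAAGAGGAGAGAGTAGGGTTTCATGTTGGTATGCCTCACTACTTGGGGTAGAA
Gata4 run, chr14:63250579-63250878: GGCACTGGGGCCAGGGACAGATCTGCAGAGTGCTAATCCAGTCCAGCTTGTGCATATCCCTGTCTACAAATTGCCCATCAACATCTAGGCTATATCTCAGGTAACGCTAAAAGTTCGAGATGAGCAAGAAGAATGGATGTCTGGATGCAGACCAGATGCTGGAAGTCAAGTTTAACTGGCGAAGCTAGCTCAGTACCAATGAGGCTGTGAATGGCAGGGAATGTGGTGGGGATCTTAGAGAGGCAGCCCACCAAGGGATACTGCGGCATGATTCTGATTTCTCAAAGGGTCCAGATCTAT
Rhbg run with Mir9-1, chr3:88202420-88202669: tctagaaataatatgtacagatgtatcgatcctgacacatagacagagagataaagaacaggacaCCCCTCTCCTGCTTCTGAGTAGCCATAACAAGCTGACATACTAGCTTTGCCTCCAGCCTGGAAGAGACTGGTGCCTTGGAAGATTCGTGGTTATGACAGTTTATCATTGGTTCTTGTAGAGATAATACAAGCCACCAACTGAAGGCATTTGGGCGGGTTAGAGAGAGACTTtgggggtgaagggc
Polg run with Mir9-3, chr7:79540918-79541217: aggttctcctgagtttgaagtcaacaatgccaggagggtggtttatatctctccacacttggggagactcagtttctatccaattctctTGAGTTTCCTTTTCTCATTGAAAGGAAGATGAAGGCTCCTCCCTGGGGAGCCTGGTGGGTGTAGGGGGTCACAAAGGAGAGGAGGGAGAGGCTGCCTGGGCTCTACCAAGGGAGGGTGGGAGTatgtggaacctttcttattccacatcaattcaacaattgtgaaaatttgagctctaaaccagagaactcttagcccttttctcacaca

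The stretch downstream of Hoxc4 was intergenic and is the middle of 391 shared bases, with a GC content of 44%. It held 2 CpG dinucleotides, and 44.3% of its bases are soft-masked in the assembly as repeats. The stretch within a Gata4 intron is the middle of 349 shared bases, with a GC content of 49.3%, 4 CpG dinucleotides and no soft-masked base (0%). The window of the Mir9-1 run had 171 shared bases in 250, and that of the Mir9-3 run had 123 shared bases in 300 and 0 CpG dinucleotides. The ratio of observed to expected CpG was 0.14, 0.22, 0.24 and 0.00 in the 4 windows, so none was CpG-rich. Fold enrichment, the authors' ratio of tag pileup to the control background with a pseudocount of 1, was 2.87, 2.67, 2.60 and 2.80 in replicate 1 for the 4 peaks in this order. In replicate 2 it was 2.78, 2.41, 2.40 and 2.44.

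Distal clustered peaks were short and weak. Their lengths ranged from 46 to 950 bp with a median of 148 bp, compared with 110 bp for the 14494 other replicate 1 peaks more than 10 kb from 5′ ends, here called other distal peaks. Fold enrichments ranged from 2.48 to 3.72, with medians of 2.69 for distal clustered and 2.60 for other distal peaks. Only 189 distal clustered peaks had a fold enrichment of 3 or higher, and 602 (31.9%) were at the lowest pileup signal in the list, 3.12. The −log10 p-value was between 2.31 and 4.06, and it reached 3 in 67 peaks (3.55%). These peaks were therefore chosen by their number side by side, with heights close to those of other peaks. The median number of neighbours within 10 kb was 5 and the highest was 20. At the criterion itself, 493 peaks (26.1%) had exactly 3 neighbours, while 1006 other distal peaks had 2. The distance to the nearest protein-coding 5′ end had a median of 28.9 kb, with 710 peaks (37.6%) at 20 kb or less, 418 (22.1%) at more than 100 kb and a maximum of 571 kb.

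The replicate 2 list took no part in the choice of these peaks and was compared with them next. Of the 1889 distal clustered peaks, 146 (7.73%, 95% Wilson interval 6.61% to 9.02%) shared at least 1 base with a peak of replicate 2, and over all replicate 1 peaks the share was 2.85%. Among other distal peaks it was 129 of 14494 (0.890%, interval 0.750% to 1.06%). Clustered peaks within 10 kb of a 5′ end had the highest share, 303 of 2606 (11.6%, interval 10.5% to 12.9%). The intervals of the 3 groups did not overlap each other. Intervals given here cover counting error only, and because neighbouring peaks are not independent they are narrower than the true uncertainty. Most distal clustered peaks thus had no replicate 2 peak on them. With a gap of up to 1 kb allowed between the peaks, the share was 29.6%. A wider search raises the share of any set of peaks, and this share was not taken for the other groups. When all lists were limited to a fold enrichment of 3 or higher, 13 peaks met the criteria and 0 were overlapped (interval 0% to 22.8%), and at a −log10 p-value of 3 or higher 0 peaks met them.

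Replicate 2 peaks were nonetheless close by. A replicate 2 peak lay within 10 kb of 1559 distal clustered peaks (82.5%, interval 80.8% to 84.2%), and 43.5% of all replicate 1 peaks and 30.7% of other distal peaks had one. The mean number of replicate 2 peaks within 10 kb was 2.71 for distal clustered, 0.396 for other distal and 3.88 for clustered peaks near 5′ ends. At least 3 replicate 2 peaks lay within 10 kb of 45.1% of distal clustered peaks, compared with 1.66% of other distal peaks. A window of 10 kb includes every overlap and searches far more sequence than a peak holds, so these shares and those of overlap are not on 1 scale.

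Both measures rose with the number of replicate 1 neighbours. Among peaks more than 10 kb from 5′ ends, the overlapped share was 0.623% with no neighbour, 1.32% with 1, 2.58% with 2 and 3.45% with 3. It continued to 5.09% with 4, 5.23% with 5 to 6, 11.1% with 7 to 9 and 17.6% (interval 13.7% to 22.5%) with 10 or more. For overlap there was no step at the criterion of 3 neighbours, since the interval for 3 (2.16% to 5.45%) included the value for 2. The share with a replicate 2 peak within 10 kb was 26.6% with no neighbour, 39.1% with 1, 51.9% with 2 and 62.5% with 3. For this share the intervals for 2 (48.8% to 55.0%) and 3 (58.1% to 66.6%) did not overlap. All 289 peaks with 10 or more neighbours had a replicate 2 peak within 10 kb (100%). The distance criterion was examined in the same way. Among clustered peaks 9 to 10 kb from a 5′ end, 14 of 135 (10.4%) were overlapped by a replicate 2 peak, and among those 10 to 11 kb away, 4 of 117 (3.42%).

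**Figure D1:**
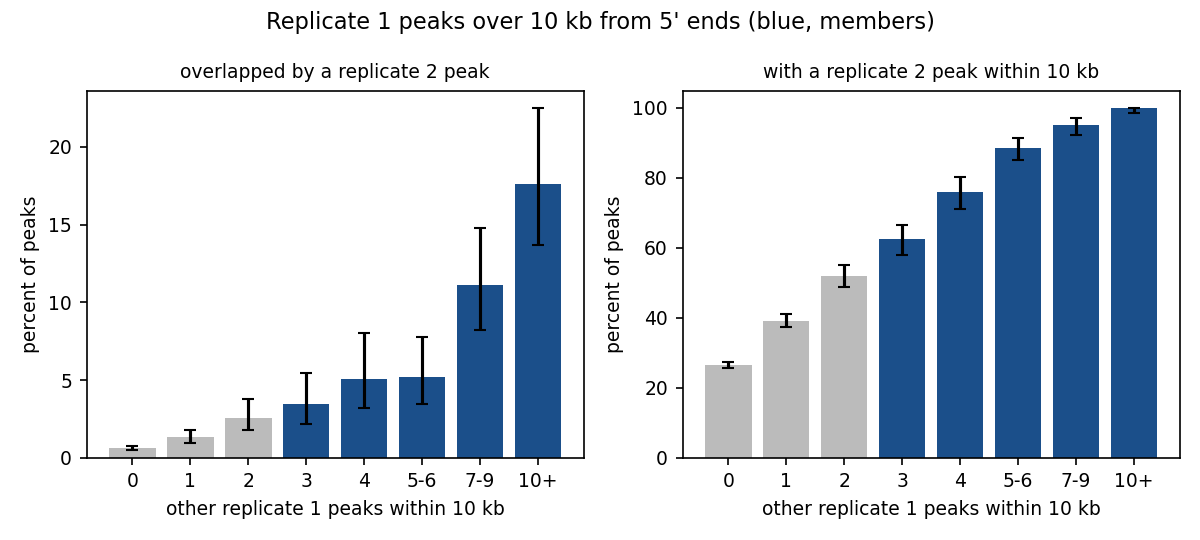
Percent of replicate 1 peaks more than 10 kb from protein-coding 5′ ends that were overlapped by a replicate 2 peak (left) or had a replicate 2 peak within 10 kb (right), by the number of other replicate 1 peaks within 10 kb. Blue bars are distal clustered peaks, grey bars are peaks with fewer neighbours and error bars are 95% Wilson intervals; the shares increase from 0.623% to 17.6% and from 26.6% to 100%.

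Peak length moved with the overlap, as longer peaks offer more bases, so the comparison was repeated within length classes. Of distal clustered peaks under 100 bp, 3.76% were overlapped by a replicate 2 peak, compared with 0.697% of other distal peaks of that length. At 100 to 199 bp the shares were 6.06% and 0.954%, and at 200 bp or longer they were 14.6% (interval 11.8% to 17.8%) and 1.44% (interval 0.960% to 2.15%). The difference was thus present in each length class. Fold enrichment did not order the peaks in this way, with 7.88% of distal clustered peaks under a fold enrichment of 3 overlapped and 6.35% (interval 3.67% to 10.8%) of those at 3 or higher. The share of distal clustered peaks exceeded that of other distal peaks on 19 of the 20 chromosomes that held any. The exception was the X chromosome, where 0 of 8 were overlapped, and the Y chromosome had none.

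The overlap also varied with distance from genes. It was 8.73% at 10 to 20 kb from a 5′ end, 10.6% at 20 to 50 kb, 6.01% at 50 to 100 kb and 3.35% (interval 2.01% to 5.54%) beyond 100 kb, where other distal peaks had 0.721% (interval 0.544% to 0.954%). Distal clustered peaks in exons of protein-coding genes were overlapped in 10 of 76 cases (13.2%), those in introns in 38 of 606 (6.27%) and intergenic ones in 98 of 1207 (8.12%), with intervals that overlapped each other. The 146 peaks that shared at least 1 base with a replicate 2 peak came from 91 runs. Their fold enrichments were 2.49 to 3.42 in replicate 1 and 2.38 to 3.23 in replicate 2, and a peak pair shared a median of 94.5 bases.

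Called against IgG, the same replicate 1 library had a peak on 1130 distal clustered peaks (59.8%, interval 57.6% to 62.0%), compared with 51.0% of all replicate 1 peaks, 47.2% of other distal peaks and 66.8% of clustered peaks near 5′ ends. Since the immunoprecipitated library was the same, this gives the effect of the control and is no second measurement. When the same selection was made in the IgG-called list it gave 2366 peaks in 521 runs, and 289 of the 420 runs (68.8%) were overlapped by one of them. In the replicate 2 list it gave 657 peaks in 212 runs. These overlapped 86 of the 420 runs (20.5%), and 88 of the 212 (41.5%) were overlapped in return.

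The runs were then taken as regions. They spanned 3.36 Mb in total, with a median of 6.01 kb and 4 peaks, and the longest was 77.7 kb. Peaks within 10 kb of a 5′ end were left out of the chains, so 1 stretch of peaks across a promoter could give 2 runs, as at Pax3. The 151 runs of 1 to 2 distal clustered peaks met the neighbour criterion only through peaks that were not distal clustered. Runs are therefore not all separate regions, and intervals over runs are too narrow as well. A replicate 2 peak lay within 179 runs (42.6%, interval 38% to 47.4%), and 61 (14.5%) held 3 or more. Runs contained 471 replicate 2 peaks, or 14 per 100 kb, compared with 1.21 per 100 kb over all sequence more than 10 kb from protein-coding 5′ ends. The share depended on the size of the run. A replicate 2 peak was present in 13.2% of runs of 1 to 2 distal clustered peaks, 40.5% of runs of 3 to 4, 66% of runs of 5 to 9, and 42 of 43 runs (97.7%, interval 87.9% to 99.6%) of 10 or more. Longer runs offer more sequence. Per 100 kb, these classes had 14.3, 9.06, 13.0 and 18.2 replicate 2 peaks, so the density was high in all of them and highest in the largest.

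A run could be the outer part of a marked promoter region. Each was therefore called chained when replicate 1 peaks, none more than 10 kb from the next, linked it to a peak within 10 kb of a protein-coding 5′ end, and free-standing otherwise. There were 220 chained and 200 free-standing runs, with median distances to the nearest 5′ end of 11.2 and 81.1 kb. A replicate 2 peak lay in 91 of the chained runs (41.4%, interval 35.1% to 48.0%) and in 88 of the free-standing ones (44%, interval 37.3% to 50.9%). The density was 18.3 per 100 kb in chained and 11.1 per 100 kb in free-standing runs. Runs more than 100 kb from a 5′ end, 87 in number, held a replicate 2 peak in 31 cases (35.6%) at a density of 9.24 per 100 kb. Regions with peaks in both libraries were thus present among chained and among free-standing runs. Free-standing describes gaps in the input-called replicate 1 list only, and a marked promoter could still be close by. The free-standing run near Foxa2, for example, lay 11.4 kb from a 5′ end that had replicate 1 peaks beside it. IgG-called and replicate 2 peaks lay in the gap between them. Distances were taken from the gene's outermost 5′ end, and 78 runs (18.6%) had a protein-coding transcript starting within 10 kb of their span. These include the runs described below at Hoxc4, Gata4, Pax3, Lhx2, Tbx15, Nr2e1, Zic1 and Art3.

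**Figure D2:**
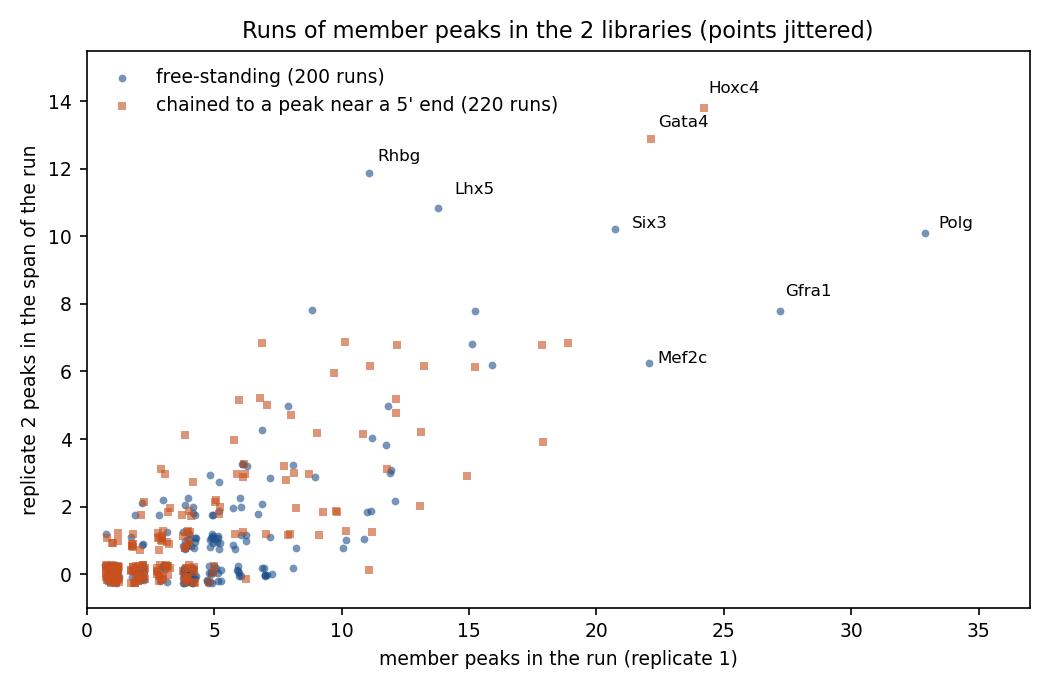
Number of distal clustered peaks (x axis) and of replicate 2 peaks (y axis) in each of the 420 runs, with points jittered by less than 0.3; blue circles are free-standing runs and orange squares are runs chained to a peak near a protein-coding 5′ end. Names are the nearest protein-coding genes of runs with at least 20 distal clustered or 10 replicate 2 peaks, and both kinds of run reach more than 5 replicate 2 peaks.

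The density of replicate 2 peaks declined away from the runs. By peak midpoints it was 13.8 per 100 kb inside, 9.95 within 5 kb of an edge, 9.36 at 5 to 10 kb and 8.68 at 10 to 20 kb. It was 5.32 at 20 to 30 kb and 3.41 at 75 to 100 kb, still above 1.21. These flanks include promoters, and flanks of adjacent runs overlap.

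**Figure D3:**
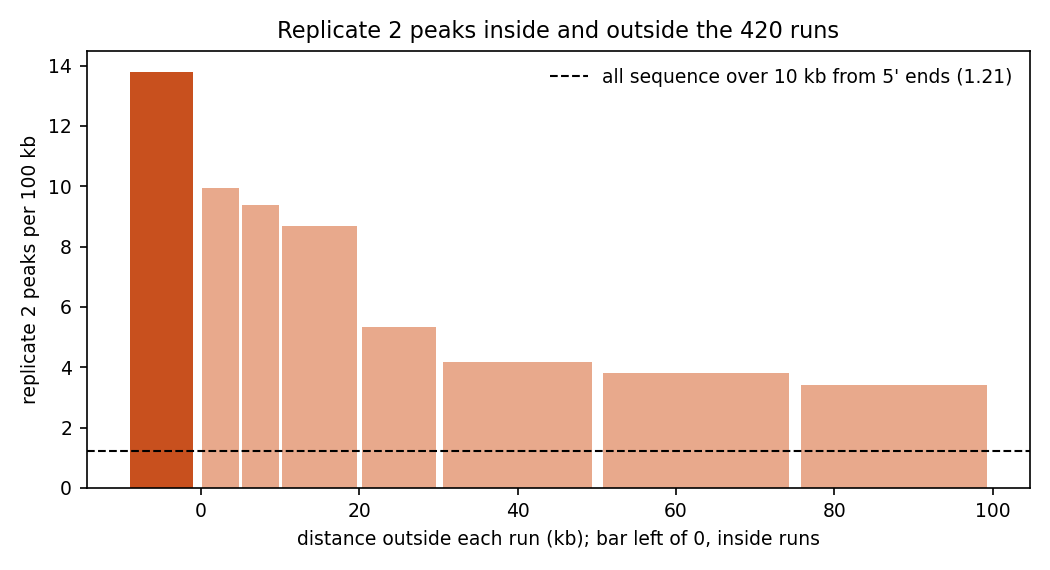
Replicate 2 peaks per 100 kb inside the 420 runs (dark bar) and in windows outside each run (light bars, distance in kb). The dashed line is the density over all sequence more than 10 kb from protein-coding 5′ ends, 1.21; the density falls from 13.8 inside to 3.41 at 75 to 100 kb.

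The largest run held a microRNA gene. It spanned chr7:79496578-79554899 and had 33 input-called and 33 IgG-called peaks in replicate 1 and 10 peaks in replicate 2. Its nearest protein-coding gene was Polg (ENSMUSG00000039176.17), which encodes the mitochondrial DNA polymerase, with its 5′ end 30.2 kb away. The run overlapped no protein-coding gene and contained Mir9-3 and its host transcript Mir9-3hg. Peaks covered 13.4% of the run in replicate 1 and 4.24% in replicate 2. Its lowest and highest fold enrichments were 2.51 and 3.17 for replicate 1, and 2.42 and 2.86 for replicate 2.

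The other genes of this microRNA lay in large runs as well. Mir9-2 was within a free-standing run of 22 distal clustered peaks, 210 kb downstream of the 5′ end of Mef2c, which encodes a MADS-box transcription factor. The counts there were 22 input-called and 16 IgG-called peaks in replicate 1 and 6 peaks in replicate 2. Mir9-1 was in a free-standing run at chr3:88194679-88220596 with 11, 12 and 12 peaks, 34.1 kb from Rhbg, which encodes an ammonium transporter. Replicate 2 thus had about as many peaks as replicate 1 around Mir9-1 and fewer around the other hairpins. A replicate 2 peak overlapped the Mir9-1 hairpin itself, and neither library had an input-called peak on the Mir9-2 or Mir9-3 hairpin. All 3 Mir9 genes of the annotation were in runs, and none of these runs overlapped a protein-coding gene. miR-9 is known as a microRNA of neural progenitors and neurons. Its mature strands, which are identical for the 3 genes, are given here from RefSeq with the seed (bases 2 to 8) in capitals, as the product that links the 3 runs.
miR-9-5p: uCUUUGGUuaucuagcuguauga
miR-9-3p: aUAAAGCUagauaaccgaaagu

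Because of the Mir9 genes, all microRNA genes in the runs were listed, a choice made after the runs had been seen. There were 15 such genes in 10 runs, or 4.46 per Mb of run, compared with 0.689 per Mb of all sequence more than 10 kb from protein-coding 5′ ends. The first density includes the Mir9 genes that prompted the listing. The 15 are not separate loci, as Gm25641 overlaps Mir9-1 and Mir129b overlaps Mir129-2, each on the opposite strand. Of these runs, 9 were free-standing and 9 held a replicate 2 peak (90%, interval 59.6% to 98.2%), with a median of 10.5 distal clustered peaks per run. Mir124a-1 and Mir124a-2, of 3 Mir124a genes, were among them, and miR-124 is abundant in neurons. The Mir124a-1 run had 4 input-called and 3 IgG-called peaks in replicate 1 and 2 peaks in replicate 2, with a replicate 2 peak on the hairpin. The Mir124a-2 run had 6, 8 and 1, with a replicate 1 peak on the hairpin. Mir129-2, of 2 Mir129 genes and known from brain, was in a run with 5, 8 and 3 peaks and had a replicate 2 peak on its hairpin. Mir183 and Mir96, known from sensory cells, shared a run with 10, 6 and 1 peaks, while Mir182, the third gene of that cluster, was in none. The others were Mir129b, Mir3093, Mir7229, Mir7230, Gm25442, Gm25641 and Gm26474. Mature sequences could be matched for 11 of the 15.
miR-129-5p: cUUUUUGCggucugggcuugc
miR-183-5p: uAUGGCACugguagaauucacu
miR-96-5p: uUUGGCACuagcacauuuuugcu

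These strands carry different seeds from each other and from both miR-9 strands, although the seeds of miR-183-5p and miR-96-5p share the letters UGGCAC. Genes of long non-coding RNAs (lncRNAs) were also dense in the runs, with 19.3 5′ ends per Mb compared with 4.26 per Mb of distal sequence. A lncRNA 5′ end lay within 49 runs (11.7%), of which 40 (81.6%, interval 68.6% to 90.0%) had a replicate 2 peak. Among the 368 runs with neither a microRNA gene nor a lncRNA 5′ end the share was 37.2% (interval 32.4% to 42.3%). The former runs were longer, with medians of 13.6 and 4.78 kb, and the part of length in this difference was not tested.

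**Figure D4:**
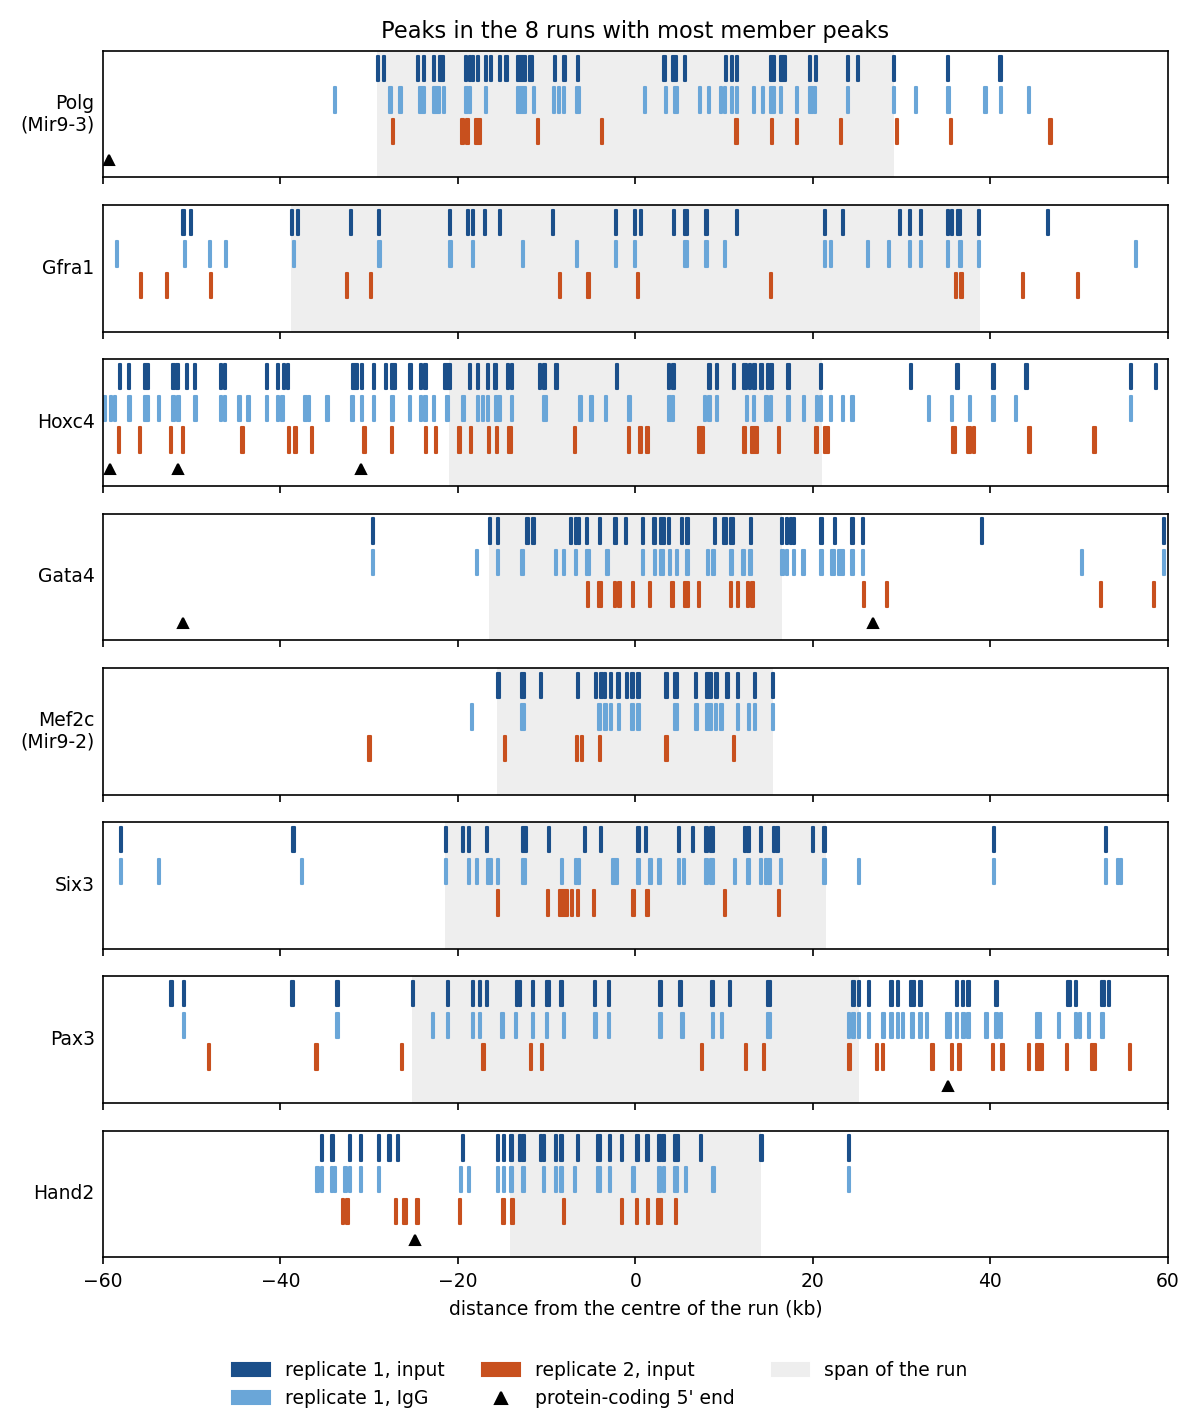
Peaks of the 3 lists in the 8 runs with most distal clustered peaks, by distance in kb from the centre of the run; each mark is a peak, drawn at least 0.25 kb wide. Grey shading is the span of the run and triangles are protein-coding 5′ ends, and replicate 2 peaks (orange) lie within the span of every run shown.

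Among runs near transcription factor genes, the region downstream of the Hoxc4 5′ end (ENSMUSG00000075394.4) at chr15:103028868-103070838 had 24 input-called and 25 IgG-called peaks in replicate 1 and 14 peaks in replicate 2. It began within Hoxc4, a homeobox gene of axial patterning, and 17 of its 24 distal clustered peaks were intergenic. The run at Gata4, a zinc finger gene of heart and endoderm, lay within the gene body at chr14:63228341-63261414 and had 22, 19 and 13 peaks. These were the runs with most replicate 2 peaks, and both were chained to peaks near a protein-coding 5′ end. Each also had a transcript of its own gene starting within 10 kb of its span. In each, 5 distal clustered peaks were overlapped by a replicate 2 peak.

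Six3, a homeobox gene of forebrain and eye, was the nearest gene to a free-standing run 119 kb upstream of its 5′ end. This run had 21 input-called and 24 IgG-called peaks in replicate 1 and 10 peaks in replicate 2, and part of it lay in Camkmt. A free-standing run 102 kb upstream of Lhx5, a LIM homeobox gene of the forebrain, spanned 69.2 kb. It had 16 replicate 1 peaks, of which 14 were distal clustered peaks, 19 IgG-called peaks and 11 replicate 2 peaks. None of these 14 was overlapped by a replicate 2 peak (0 of 14), so the peaks of the 2 libraries lay at different bases throughout this region.

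Other regulators with large runs included the bHLH gene Hand2, with 18, 14 and 7 peaks in the order input-called, IgG-called and replicate 2. Of its 18 distal clustered peaks 6 were overlapped by replicate 2, the most of any run named here. Foxa2, a forkhead gene of endoderm and floor plate, had a free-standing run 11.4 kb downstream with 15, 7 and 7 peaks. Tbx5, a T-box gene of forelimb and heart, had a free-standing run 20.1 kb upstream with 9, 14 and 8 peaks. Lhx2 had 18, 12 and 4 peaks. Olig1, a bHLH gene of the oligodendrocyte lineage, had 15, 13 and 3. The run upstream of Zic1, a zinc finger gene of neural development, included part of Zic4 and had 15, 14 and 6. A further free-standing run 25.9 kb upstream of Tmem33, which encodes a transmembrane protein, had 15, 16 and 8 peaks. The run inside Cdkn2a, which was not picked by rank, had 13 distal clustered, 12 IgG-called and 6 replicate 2 peaks. Only the outermost 5′ end of this gene counted for the distance. Transcripts that start further inside the gene played no part in the choice, so the run may lie near such a start.

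Introns were considered next. Of the distal clustered peaks, 606 (32.1%) were intronic, 76 (4.02%) touched an exon and 1207 (63.9%) were intergenic. All sequence at this distance from 5′ ends was 34.2% intronic, 1.84% exonic and 64.0% intergenic, and 35.5% of other distal peaks were intronic. Without 2 protein-coding transcript models longer than 2.5 Mb, left out after the values were seen because they reach across other genes, the intronic shares were 29.8% for distal clustered and 35.0% for other distal peaks. Of the 420 runs, 95 (22.6%) lay wholly inside 1 intron of a protein-coding gene, but 10 of these were in introns of more than 1 Mb. The other 85 (20.2%) were in introns of 69 genes, with a median intron length of 57.0 kb. In 21 of the 85 the gene that held the run was not the gene with the nearest 5′ end. A replicate 2 peak was present in 23 of the 85 (27.1%).

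The run of Gfra1, which encodes a receptor subunit for GDNF, lay within the gene body, 119 kb downstream of the 5′ end, and spanned 77.7 kb. It had 27 input-called and 21 IgG-called peaks in replicate 1 and 8 peaks in replicate 2, and all 27 distal clustered peaks were intronic. Pax3, a paired box gene of neural crest and muscle, had a chained run of 19, 19 and 7 peaks in intron 4 of its 8-exon transcript. Ostm1, a gene of osteoclast and lysosome function, had a free-standing run in intron 2, with 16, 13 and 6 peaks. The 5′ end of Nr2e1, on the opposite strand, lies beside that of Ostm1 and is almost equally near to this run. Nr2e1 had a chained run of its own with 8, 8 and 3 peaks, so the name Ostm1 gives only the nearest 5′ end. Tbx15 had 10, 9 and 7 peaks in intron 1, while Pax7, with a similar 10 and 11 in replicate 1, had 1 in replicate 2. A run 68 kb from the 5′ end of Bub3, a mitotic checkpoint gene, had 12, 14 and 5 peaks. The intron that holds it belongs to a single annotated transcript of Fgfr2, a receptor gene, and is 2.91 Mb long, so that it reaches across Bub3 and other genes. The 8 runs in this intron are therefore not described as Fgfr2 runs.

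Runs without any replicate 2 peak numbered 241 (57.4%), and they were mostly small, with a median of 2 distal clustered peaks compared with 5 in the others. The largest was upstream of Hoxc13, the only run of 10 or more distal clustered peaks with no replicate 2 peak. It had 11 input-called and 13 IgG-called peaks in replicate 1 and 0 peaks in replicate 2. The next was in Art3 near Cxcl10, a chemokine gene, with 8, 2 and 0 peaks. Several runs followed with 7 distal clustered peaks, of which the 3 longest were within Ebf3 with 7, 7 and 0, in intron 2 of Rbms3 with 7, 4 and 0, and 116 kb upstream of the proliferation gene Mki67 with 7, 5 and 0. At the Art3 run the control also mattered, as 2 of its 8 distal clustered peaks were called against IgG. Whether replicate 2 lacked the mark there or fell short of the peak threshold cannot be told from a list of peaks.

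The runs farthest from a 5′ end that held a replicate 2 peak were 452 kb from Slc30a5, 384 kb from that of Lsamp (in its intron 1), 350 kb from Rgma, 324 kb from Irx2 and 298 kb from Dok5. Lsamp encodes a neural adhesion protein, Rgma a guidance molecule and Irx2 an Iroquois homeobox protein. These runs were small, with 3, 5, 4, 3 and 7 replicate 1 peaks, and had 1 or 2 replicate 2 peaks each. Rgma, Bub3, Sox1 and Nfib were each the nearest gene to 5 runs. At Sox1, a gene of neural progenitors, these held 25 distal clustered peaks and 10 replicate 2 peaks, whereas at Nfib they held 16 and 1.

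Finally, the nearest protein-coding genes were compared with lists of gene names. The 420 runs had 322 different nearest genes. The homeobox list was made by gene name and is approximate. It held Pax1 and Pax9, which have no homeobox, and left out some homeobox genes such as Hlx and Otp. Genes of this list were nearest to 107 runs (25.5%, interval 21.5% to 29.9%), compared with 3.49% of other distal peaks and 0.811% of protein-coding genes. The 107 runs had 67 different nearest genes. Other developmental transcription factors, such as Gata, Sox, Fox and T-box genes, were nearest to 62 (14.8%, interval 11.7% to 18.5%), compared with 3.68% of other distal peaks. For both lists the intervals of runs and other distal peaks did not overlap. Genes of signalling ligands, receptors and antagonists were nearest to 8 runs (1.90%) and 2.08% of other distal peaks. For neuronal channels, receptors and adhesion genes the order was the opposite, with 6 runs (1.43%, interval 0.656% to 3.08%) and 4.54% of other distal peaks (interval 4.21% to 4.89%). These comparisons set runs against single peaks, and the runs lay nearer to genes. Within 20 kb of a 5′ end were 242 of the 420 runs and 1825 of the 14494 other distal peaks. Beyond 100 kb were 87 runs and 6659 other distal peaks. The part of distance in these differences was not tested.

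Transcription factors known from dental mesenchyme were nearest to 7 runs (1.67%, interval 0.810% to 3.40%) and 0.511% of other distal peaks. They included Pax9 and Tfap2b, and a replicate 2 peak was in 3 of the 7 runs. In all, 183 runs (43.6%) were nearest to a gene of some list and 237 (56.4%) were not, among them those near Hlx and Otp. The former held a replicate 2 peak in 50.3% of cases and the latter in 36.7%. The listed share fell with distance, from 59.5% of runs within 20 kb of a 5′ end to 27.5% at 20 to 100 kb and 16.1% beyond 100 kb.

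**Figure D5:**
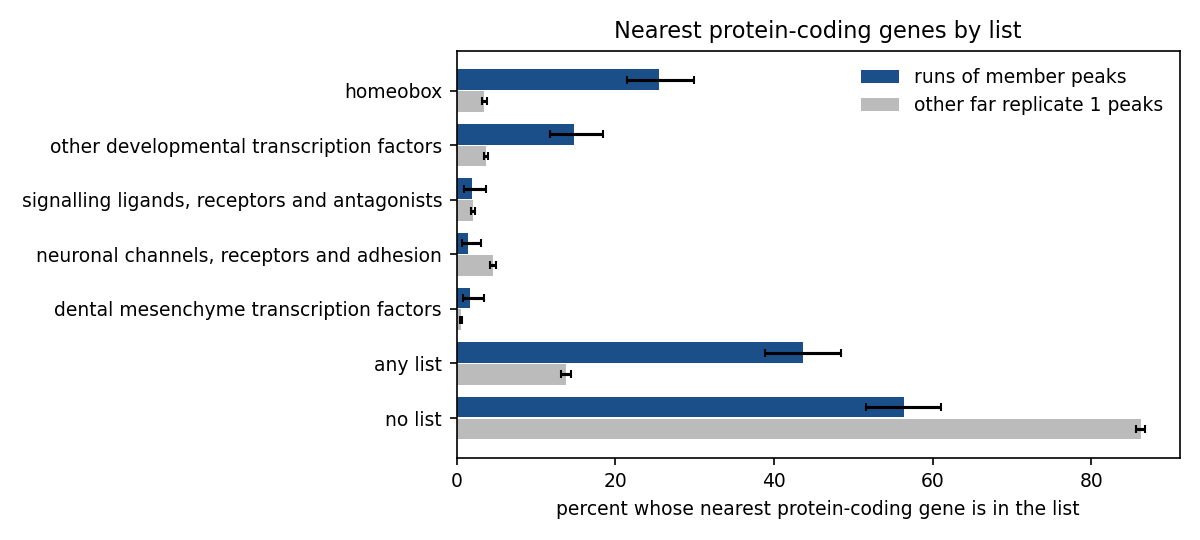
Percent of the 420 runs (blue) and of the 14494 other distal replicate 1 peaks (grey) whose nearest protein-coding gene is in each list, with 95% Wilson intervals. Genes of the homeobox list, which was made by name and is approximate, make up 25.5% of the former and 3.49% of the latter. Genes of no list make up 56.4% and 86.2%.

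The base composition of the peaks was read from the genome in windows of 1 kb around their midpoints. The median GC content was 46.2% for distal clustered peaks, 43.3% for other distal peaks, 49.2% for clustered peaks near 5′ ends and 41% for 1 kb tiles of all distal sequence. The ratio of observed to expected CpG had medians of 0.221, 0.170, 0.290 and 0.154 in the same order. Soft-masked repeats made up 17.0%, 19.1%, 13.2% and 26.9%. Distal clustered peaks were therefore intermediate between promoter-near clusters and other distal peaks in each of these measures. CpG-rich windows, with at least 50% GC and a CpG ratio of at least 0.6, were found for 59 distal clustered peaks (3.12%, interval 2.43% to 4.01%), for 0.248% of other distal peaks and for 12.8% of clustered peaks near 5′ ends. Most distal clustered peaks thus lay outside CpG-rich windows. GC content also affects how many tags a library yields, and its part in the number of peaks was not tested.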

How the data were processed

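H3K27me3 ChIP-seq peak lists of 2 libraries were used. Per the labels and the published methods, BWA placed reads on GRCm38 (mm10), SAMtools sorted them, and peaks were called by the authors with MACS2 2.1.1 in broad mode at a p-value of 0.005, without pooling of libraries. The authors deposited peak positions, a pileup signal, a fold enrichment (a ratio to the control background with a pseudocount of 1) and −log10 p-values. MACS2 extended tags to 46 bp in replicate 1 and 71 bp in replicate 2, less than the tag length, which narrows peaks. The same lists in other formats were not used, nor were mitochondrial peaks.

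Distances were taken from 5′ ends of 21938 protein-coding genes of GENCODE M21, and sequence from GRCm38.p6. Overlaps needed 1 base. Shares have 95% Wilson intervals (scipy 1.17.1). With 2 libraries no test between them was made. The scripts were tested on simulated positions with known clusters. Runs were named by rank: most distal clustered peaks, most replicate 2 peaks, most distal clustered peaks without replicate 2 or within 1 intron, and largest distance. Some runs, such as those at Cdkn2a, Nr2e1 and several microRNA genes, were named outside these ranks. Sequence windows came from the named runs with most replicate 2 peaks whose peaks shared bases. The peaks, criteria and gene lists were chosen with earlier results of these data known.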

Additional observations from a re-analysis of the deposited data

How the results depend on the processing

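The number of distal clustered peaks, 1889, was 1062 with 5 or more neighbours, 1079 with a neighbour window of 5 kb, 1179 beyond 20 kb from 5′ ends, 1181 beyond 10 kb from 5′ ends of every gene type and 657 by the criteria on the replicate 2 list. Peaks are weak, so thresholds removed nearly all. A −log10 p-value of 3 or higher left 0, and a fold enrichment of 3 or higher left 13, of which 0% overlapped replicate 2, 38.5% overlapped IgG-called peaks and 0% were intronic. The overlap with replicate 2, 7.73%, was 10.5% with 5 neighbours, 10.1% with the 5 kb window, 6.60% with every gene type, 16.4% on the replicate 2 list (read in replicate 1), 5.24% when at least 50% of the shorter peak had to be shared, 29.6% for a peak within 1 kb, 6.41% with replicate 2 reduced to the size of replicate 1, 6.07% as a mean over runs and 5.91% in free-standing runs. The overlap with IgG-called peaks, 59.8%, was 64.9% with 5 neighbours, 62.9% with the 5 kb window, 17.5% on the replicate 2 list, 77.9% within 1 kb and 57.2% in free-standing runs. The intronic share, 32.1%, was 26.4% with 5 neighbours, 25.6% with 5′ ends of every protein-coding transcript, 40.1% with every gene type, 25.7% on the replicate 2 list and 29.8% without transcripts over 2.5 Mb (chosen after seeing the data). Runs with a replicate 2 peak, 42.6%, were 36.9% with the reduced replicate 2 list and 81.9% with spans extended by 10 kb. The causes of these shifts were not tested, apart from fewer or more bases and peaks by construction. No paired analysis was possible because no test was made with 2 libraries. Without replicate 1, the number of peaks and the intronic share are those of the replicate 2 list above. Without replicate 2 they stay as reported, as does the overlap with IgG-called peaks, since they use replicate 1 alone, and the overlap of replicates has no value without either.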
